A study of Homo sapiens with 10 samples.

Results

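The genes described here are 43 components of the WNT pathway, from secreted ligands and surface receptors to the nuclear partners of β-catenin, and include the ubiquitin ligase gene *RNF43*. They were listed by symbol and read from the gene counts of all 6 RNA-seq libraries of the study and from its list of TRPS1 peaks. Of the 43 genes, 42 were present in the count tables, which hold 19695 gene symbols in all, and the level of *NKD2* was not analysed here. After a filter on low counts, 33 genes were tested in at least 1 comparison, and 32, 32 and 33 genes were tested in the comparisons given below. Every tested gene passed by having over 2 CPM (counts scaled to the size of the library) in no fewer than 2 of the 4 libraries compared.

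All samples came from T47D cells, an established human breast cancer cell line of luminal origin. For RNA-seq, the cells received control siRNA, *TRPS1* siRNA or *CHD4* siRNA and were collected 72 h after transfection, with 2 libraries per group. TRPS1 is an atypical GATA factor that represses transcription, and CHD4 is the ATPase of the nucleosome remodelling and deacetylase (NuRD) complex. ChIP-seq with TRPS1 antibodies (2 libraries, with 2 input libraries) was made in T47D cells and gave 1 peak list. The labels name an siRNA for *CHD4*, whereas the RNA-seq methods of the study name an shRNA. The siRNA used for each library (number 1 or number 2 of each pair) was not given in the sources used here. The labels do not say that the replicates were separate cultures, so that a p-value measures only the spread between these libraries, which may be technical.

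WNT ligands bind Frizzled receptors with the coreceptors LRP5 and LRP6, which recruits Dishevelled and halts the destruction complex of AXIN, APC, casein kinase CSNK1A1 and GSK3. β-catenin then accumulates, enters the nucleus and activates transcription with the TCF/LEF factors. The pathway is curbed at many points: RNF43 and ZNRF3 remove Frizzled from the cell surface, DKK1 blocks the coreceptors, NOTUM removes the lipid from the ligand, and NKD1 and AXIN2 act inside the cell, several of them as targets of the pathway itself. In the breast, WNT signals are known for their part in the growth and branching of the mammary epithelium.

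The oligonucleotides that the study listed for its knockdowns and for *RNF43* are printed first. The *RNF43* levels below come from RNA-seq counts and use none of the primers. The sequences are those in the oligonucleotide list of the study, written from the first base as listed, with U in siRNAs and T in primers. Both *RNF43* pairs are primers, for the transcript (QPCR) and for the TRPS1-bound region (Qchip).
Control siRNA: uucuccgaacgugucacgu
TRPS1 siRNA#1: gucccuugaauguaguaaa
TRPS1 siRNA#2: gcacacagcugcuacaaau
CHD4 siRNA#1: cgggaguucaguaccaaua
CHD4 siRNA#2: gggcugcuuacuugaacau
RNF43-QPCR-F: cctgtgtgtgccatctgtct
RNF43-QPCR-R: gcaagtccgatgctgatgta
RNF43-Qchip-F: cccacccgaacaaacattaa
RNF43-Qchip-R: acaggtgcatcaactcttcc

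Library totals ranged from 10333138 to 14668358 counts. Levels are given as CPM normalised with TMM factors over the 6 libraries, and a count of 3, the limit of detection used here, equals between 0.198 and 0.284 CPM. *TRPS1* was at 1418 and 2323 CPM in the control siRNA libraries, at 1149 and 727 CPM after *TRPS1* siRNA and at 2462 and 1583 CPM after *CHD4* siRNA. *CHD4* was at 295 and 292 CPM, at 298 and 271 CPM and at 96.2 and 54.2 CPM in the same order, so that each targeted transcript was lower in both of its knockdown libraries than in all other libraries. Control siRNA replicate 1 stood apart from the other libraries: log2 CPM correlated with r = 0.898 across genes between the control replicates, against 0.978 between the *TRPS1* siRNA and 0.97 between the *CHD4* siRNA replicates. All 8 luminal markers (*ESR1*, *PGR*, *GATA3*, *FOXA1*, *KRT8*, *KRT18*, *KRT19* and *XBP1*) had over 10 counts in every library. Their summed level was 12030 to 14528 CPM in control, 5720.05 to 5882 CPM in *TRPS1* siRNA and 4849 to 6911 CPM in *CHD4* siRNA libraries. In the control libraries this sum was carried mostly by *KRT8*, *KRT18* and *KRT19*, whereas *PGR* was the highest marker in *CHD4* siRNA replicate 1, at 1730 CPM. Of the 8 markers, 5 lay below both controls for *TRPS1* siRNA and 6 for *CHD4* siRNA, and *FOXA1* and *PGR* overlapped with control in both. The 6 basal markers summed to 25.3 to 25.6 CPM in control, 37.8 to 45.98 CPM in *TRPS1* siRNA and 45.5 to 45.6 CPM in *CHD4* siRNA libraries. Almost all of this sum was *ACTA2* and *MYLK*, which were tested and lay above both controls in both knockdowns. *KRT5* (0 to 2 counts), *KRT14* (0 to 6), *KRT17* (0 to 8) and *OXTR* (6 to 34) were too low to be tested and shared no direction. In control, *TRPS1* siRNA and *CHD4* siRNA libraries, mean *KRT14* was 0.216, 0.146 and 0 CPM, mean *KRT17* 0.0386, 0.411 and 0.368 CPM, and mean *OXTR* 1.13, 0.813 and 2.06 CPM. Fibroblast markers summed to between 60.9 and 153 CPM, almost all of it *COL1A1*, with overlapping groups, and leukocyte markers to 6.87 to 10.3 CPM, 5.29 to 9.13 CPM and 9.75 to 11.4 CPM in the same order. Endothelial markers reached at most 0.0772, 0.662 and 1.69 CPM. In bulk libraries fewer cells of a type and less RNA per cell cannot be told apart, and the part of these shifts in the results below was not tested.

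Upon silencing *TRPS1*, *RNF43* and *TCF7L1* were higher and *GSK3A* was lower among the WNT pathway genes, while the genes of β-catenin, the Dishevelled proteins and the ligands did not pass the test. A gene was called when its fold change was over 2 and its unadjusted p under 0.05 in edgeR's quasi-likelihood F-test, the thresholds of the study. Of the 32 members tested, 2 were called higher and 1 lower. Of all 12921 genes tested, 2.70% were called higher and 3.17% lower. With *ZNRF3*, whose unadjusted p was under 0.05 at a fold change under 2, 4 of 32 members passed on p alone, against 6.98% of all genes. The median log2 fold change of the members was -0.08, against -0.02 for all genes. No member had an adjusted p (Benjamini-Hochberg, edgeR) under 0.05. The lowest among them was 0.659, and across all genes 902 had an unadjusted p under 0.05 and 0 an adjusted p under 0.05, against 34 with edgeR's likelihood ratio test and 37 with DESeq2. An exact two-sided permutation test on 1 gene, with 2 libraries against 2, has a smallest possible p of 0.3333.

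Upon silencing *CHD4*, *RNF43* was again called higher, and no other member was called. The called member was 1 of 32, against 2.60% of all 12918 genes called higher and 2.85% called lower. The median of the members' log2 fold changes was 0.03 (-0.02 for all genes), and their lowest adjusted p was 0.792 in edgeR. Across all genes 769 had an unadjusted p under 0.05 and 0 an adjusted p under 0.05, against 58 with the likelihood ratio test and 50 with DESeq2. Both knockdowns were compared with the same 2 control siRNA libraries, so that their values are given side by side and are not independent of each other.

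**Figure D1:**
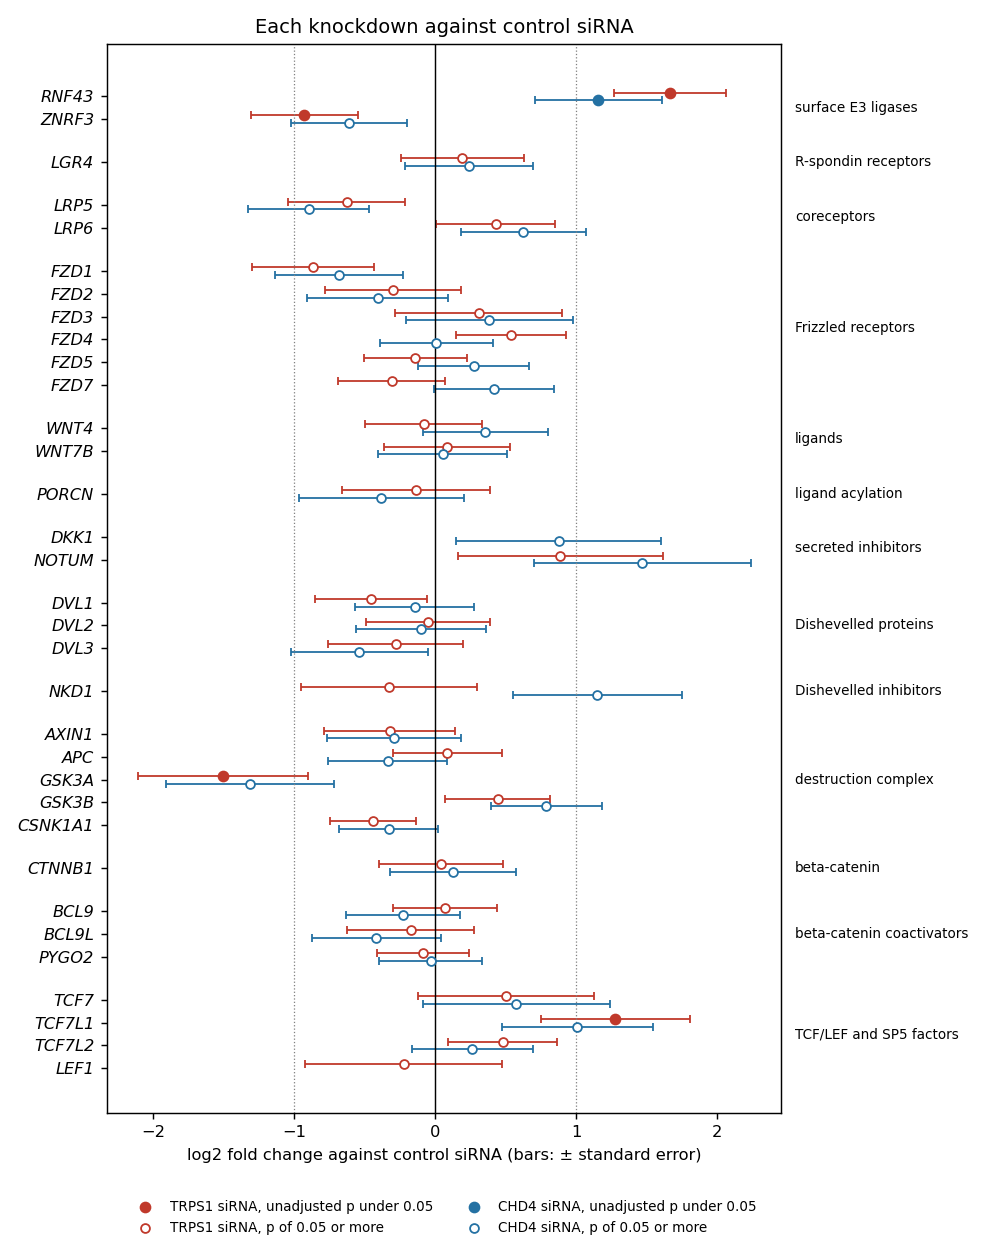
Log2 fold change (x axis, bars ± standard error) of each tested WNT pathway gene (y axis, grouped by role) for *TRPS1* siRNA (red) and *CHD4* siRNA (blue), each against control siRNA. Filled points have an unadjusted p under 0.05 and dotted lines mark a fold change of 2, and *RNF43* stands highest for *TRPS1* siRNA at 1.67.

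*RNF43* encodes a transmembrane ubiquitin ligase that clears Frizzled receptors from the surface. Its level was 9.06 and 10.8 CPM in the control siRNA libraries (126 and 140 counts), 36.2 and 26.4 CPM after *TRPS1* siRNA (383 and 399 counts) and 26.4 and 17.8 CPM after *CHD4* siRNA (281 and 222 counts). Both libraries of each knockdown lay above both control libraries. The log2 fold change was 1.67 (standard error 0.40, a 3.18-fold increase, adjusted p = 0.659) for *TRPS1* siRNA in edgeR. For *CHD4* siRNA it was 1.16 (standard error 0.45, a 2.23-fold increase, adjusted p = 0.792), and both changes were called on the unadjusted p. *RNF43* was chosen by the study for these experiments, and its increase is therefore no independent evidence of a direction. The paper also reported higher *RNF43* by RT-qPCR after each knockdown. It reported enrichment of TRPS1 and of CHD4 at *RNF43* by ChIP-qPCR as well, and neither assay is part of the data read here. Leaving out *TRPS1* siRNA replicate 1 gave 1.42, and leaving out *CHD4* siRNA replicate 1 or 2 gave 0.87 or 1.44, with unadjusted p over 0.05 in edgeR, which ended the call in each case. With the other libraries left out in turn the *TRPS1* siRNA value stayed between 1.58 and 1.91.

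*ZNRF3*, the paralogue of *RNF43* with the same role at the membrane, was at 28.3 and 23.01 CPM in control, at 13.4 and 13.4 CPM in *TRPS1* siRNA and at 18.006 and 15.4 CPM in *CHD4* siRNA libraries. Thus the paralogues stood on opposite sides of the control level: every *ZNRF3* knockdown library lay below, and every *RNF43* knockdown library above, both controls. The log2 fold change of *ZNRF3* was -0.93 (standard error 0.38, adjusted p = 0.659) for *TRPS1* siRNA and -0.61 (standard error 0.41, adjusted p = 0.798) for *CHD4* siRNA in edgeR. It did not reach a fold change of 2, and without *TRPS1* siRNA replicate 1 or 2 its unadjusted p was over 0.05, as it was with DESeq2, with unscaled library sizes, without a filter and with over 2 CPM required in all 4 libraries.

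**Figure D2:**
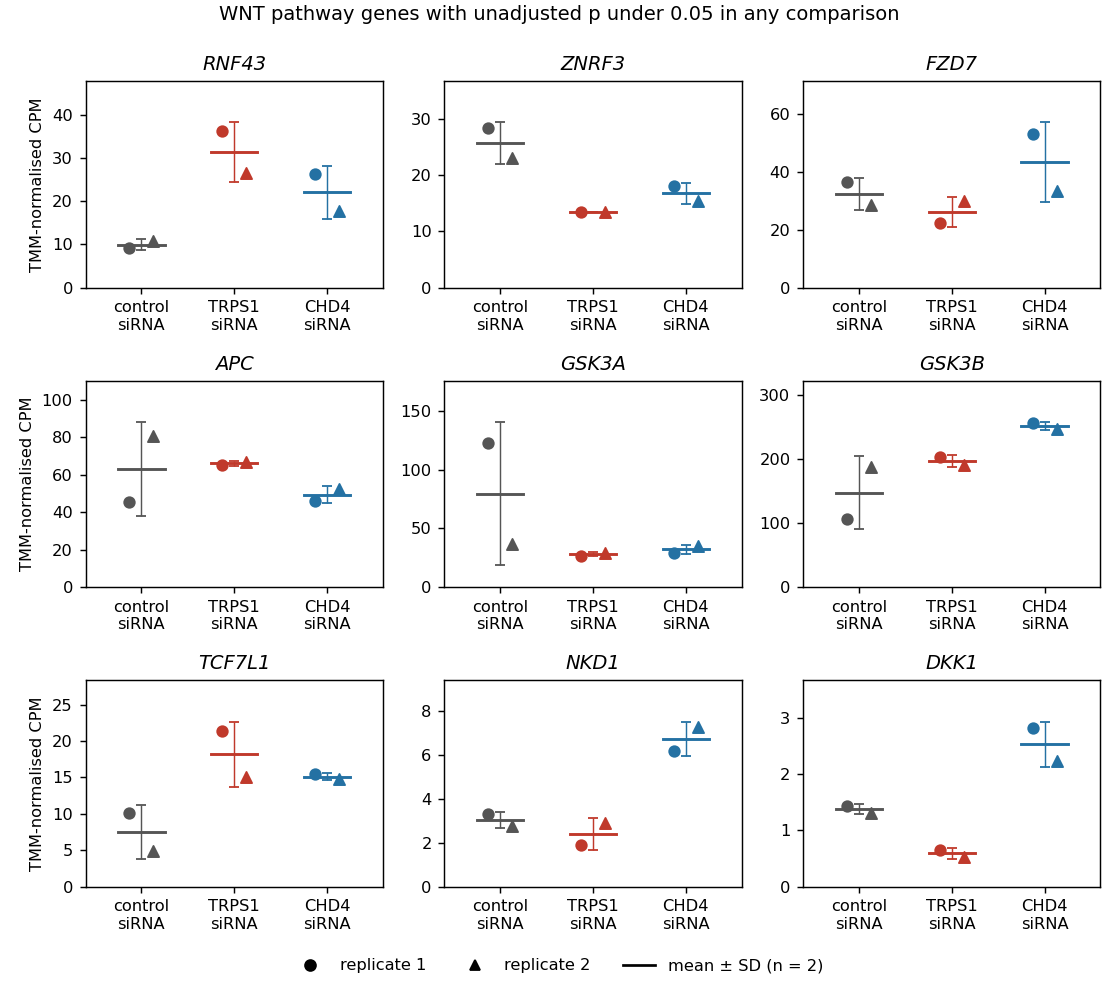
TMM-normalised CPM (y axis) in each library of the 9 WNT pathway genes with an unadjusted p under 0.05 in any comparison, by siRNA group (x axis). Circles are replicate 1, triangles replicate 2, and lines with bars the mean ± SD (n = 2). The *RNF43* points of both knockdowns lie above both controls at 9.06 and 10.8 CPM, and the *GSK3A* controls lie far apart at 123 and 36.5 CPM.

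Among the receptors, *LGR4*, a receptor for R-spondins that holds RNF43 and ZNRF3 back, had log2 fold changes of 0.19 (*TRPS1* siRNA) and 0.24 (*CHD4* siRNA), with groups that overlapped. *LGR5* was at 0 to 3 counts in all libraries. None of the 6 tested Frizzled genes was called. Their log2 fold changes ran from -0.87 (*FZD1*) to 0.54 (*FZD4*) for *TRPS1* siRNA and from -0.68 (*FZD1*) to 0.42 (*FZD7*) for *CHD4* siRNA. *FZD6* (0 to 17 counts) and *FZD8* (2 to 5 counts) were too low to be tested. The coreceptor genes *LRP5* and *LRP6* had values of opposite sign, -0.63 and 0.43 for *TRPS1* siRNA and -0.90 and 0.63 for *CHD4* siRNA, and neither was called. Their control libraries also differed in opposite directions, with replicate 1 at 1.90 (*LRP5*) and 0.484 (*LRP6*) times replicate 2. With each library left out in turn, *LRP5* ranged from -1.04 to -0.05 for *TRPS1* siRNA and from -1.31 to -0.31 for *CHD4* siRNA.

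*GSK3A*, a kinase of the destruction complex that marks β-catenin for degradation, was at 123 and 36.5 CPM in control, at 26.7 and 29.4 CPM in *TRPS1* siRNA and at 29.3 and 34.96 CPM in *CHD4* siRNA libraries. The groups did not overlap, but control siRNA replicate 2 was close to the highest *CHD4* siRNA library and control replicate 1 was 3.36 times as high as its partner. On the log2 scale the change was -1.51 (standard error 0.60, adjusted p = 0.659 in edgeR) for *TRPS1* siRNA, which was called, and -1.32 (standard error 0.60, adjusted p = 0.792) for *CHD4* siRNA, which was not. Without control siRNA replicate 1 these values became -0.34 and -0.13. The *TRPS1* siRNA call was also lost without *TRPS1* siRNA replicate 1 (-1.44) or 2 (-1.55) and with unscaled library sizes (-1.37).

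The other members of the destruction complex were not called against control. *GSK3B*, the partner kinase of *GSK3A*, had levels of 107 and 188 CPM in control, 204 and 191 CPM in *TRPS1* siRNA and 256 and 247 CPM in *CHD4* siRNA libraries. Both knockdown groups lay above control, with log2 fold changes of 0.44 (standard error 0.37, adjusted p = 0.718) and 0.79 (standard error 0.40, adjusted p = 0.792) in edgeR. The higher control and the lower *TRPS1* siRNA library nearly coincided. With each library left out in turn these values ranged from 0.12 to 0.87 and from 0.47 to 1.21. *AXIN1*, the scaffold, had values of -0.32 and -0.29, and *APC*, the second scaffold, of 0.09 and -0.34, with overlapping groups in each case. *CSNK1A1*, the priming kinase, was below control in both knockdowns (-0.44 and -0.33) without passing the test. *AXIN2*, a standard readout of β-catenin activity in many tissues, was at 0 to 3 counts in all 6 libraries and was therefore at or under the limit of detection. *CTNNB1*, which encodes β-catenin itself, was at 192 and 443 CPM in control libraries and between 297 and 354 CPM in the 4 knockdown libraries, with log2 fold changes of 0.04 and 0.13.

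*TCF7L1*, a TCF factor known mainly as a repressor of WNT targets, was at 10.1 and 4.86 CPM in control, at 21.4 and 15.02 CPM in *TRPS1* siRNA and at 15.5 and 14.8 CPM in *CHD4* siRNA libraries. All 4 knockdown libraries lay above both controls, which differed from each other by 2.08 times. The log2 fold change of *TCF7L1* was 1.28 (standard error 0.53, adjusted p = 0.659 in edgeR) for *TRPS1* siRNA, which was called. For *CHD4* siRNA it was 1.01 (standard error 0.54, adjusted p = 0.792), which was not called. The *TRPS1* siRNA call was lost with RLE size factors, without control siRNA replicate 2 (0.82, a fold change under 2) and without *TRPS1* siRNA replicate 1 (1.00) or 2 (1.54).

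The other nuclear members were not called. *TCF7L2* and *TCF7* had log2 fold changes of 0.48 and 0.50 for *TRPS1* siRNA and of 0.26 and 0.58 for *CHD4* siRNA. *LEF1* (15 to 57 counts) had a value of -0.22 for *TRPS1* siRNA and was under the filter for *CHD4* siRNA against control. Between the knockdowns its value was -0.64 (*CHD4* siRNA over *TRPS1* siRNA), where it passed the filter only through the *TRPS1* siRNA libraries and had to be lower. *SP5*, a transcription factor gene induced by WNT signals, had at most 4 counts. Of the coactivators that tether β-catenin to the transcription machinery, *BCL9*, *BCL9L* and *PYGO2* lay between -0.17 and 0.07 for *TRPS1* siRNA and between -0.42 and -0.03 for *CHD4* siRNA.

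Genes of ligands and their processing showed no call against control. *WNT4*, a ligand known from mammary branching, was at 12.8 and 10.8 CPM in control, at 10.6 and 11.6 CPM in *TRPS1* siRNA and at 15.9 and 14.2 CPM in *CHD4* siRNA libraries. Its log2 fold changes were -0.08 and 0.36. *WNT7B* had values of 0.08 and 0.05 and *PORCN*, the enzyme that acylates WNT proteins, of -0.14 and -0.38. *WNT5A* (0 to 17 counts) and *WNT5B* (0 to 11 counts) were too low to be tested, as were the secreted inhibitors *SFRP1* (1 to 9 counts) and *DKK3* (0 to 6 counts). The Dishevelled genes *DVL1*, *DVL2* and *DVL3* ranged from -0.46 to -0.05 for *TRPS1* siRNA and from -0.54 to -0.10 for *CHD4* siRNA, with groups that overlapped.

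*NOTUM*, *NKD1* and *DKK1*, which encode inhibitors, were at higher levels in both *CHD4* siRNA libraries than in both controls without being called. *NOTUM*, a secreted hydrolase that inactivates WNT ligands, was at 1.65 and 0.772 CPM in control (23 and 10 counts), at 1.98 and 2.51 CPM in *TRPS1* siRNA and at 3.1 and 3.68 CPM in *CHD4* siRNA libraries. Its log2 fold changes were 0.89 (standard error 0.73, adjusted p = 0.715) and 1.47 (standard error 0.77, adjusted p = 0.792) in edgeR. Against control, *NOTUM* in both comparisons and *DKK1* for *CHD4* siRNA passed the filter only through the knockdown libraries, where they therefore had to be higher. The filter used CPM without TMM factors, under which *NOTUM* was over 2 CPM in both *TRPS1* siRNA libraries. *NKD1* had a value of 1.15 (standard error 0.60, adjusted p = 0.792) and *DKK1* of 0.88 (standard error 0.73, adjusted p = 0.801) for *CHD4* siRNA, and for *TRPS1* siRNA *NKD1* had -0.33, whereas *DKK1* was filtered out.

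Counted over the whole list, both *TRPS1* siRNA libraries lay above both controls for 5 of 32 members (*RNF43*, *GSK3B*, *TCF7L1*, *TCF7L2* and *NOTUM*) and below for 5 (*ZNRF3*, *LRP5*, *FZD1*, *GSK3A* and *CSNK1A1*), against 21.5% and 22.5% of all tested genes. For *CHD4* siRNA 9 of 32 members lay above and 5 below, against 18.8% and 20.7%. Among the members counted as above, *NOTUM* (both knockdowns) and *DKK1* (*CHD4* siRNA) had that direction set by the filter. The rest overlapped, and whether these shares differ from those of all tested genes was not tested.

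The spread between the control libraries limited both comparisons. Of 32 members, 21 differed by over 1.5 times between the control siRNA replicates, 13 of them higher in replicate 1 and 8 lower, and so did 58.7% of all tested genes. Between the *TRPS1* siRNA replicates 1 of 32 members differed by as much (12.7% of all genes) and between the *CHD4* siRNA replicates 2 of 32 (18.2%). Leaving out control siRNA replicate 2, so that replicate 1 alone stood for control and was assumed to vary like the other group, raised the members called to 8 in each comparison. Without control replicate 1 the called members were *RNF43*, *TCF7L1* and *NOTUM* for *TRPS1* siRNA, and *RNF43*, *TCF7L1*, *NOTUM* and *NKD1* for *CHD4* siRNA, with the direction of *NOTUM* set by the filter. In that setting *DVL3* turned from -0.28 to 0.55 and *BCL9L* from -0.17 to 0.54 for *TRPS1* siRNA.

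**Figure D3:**
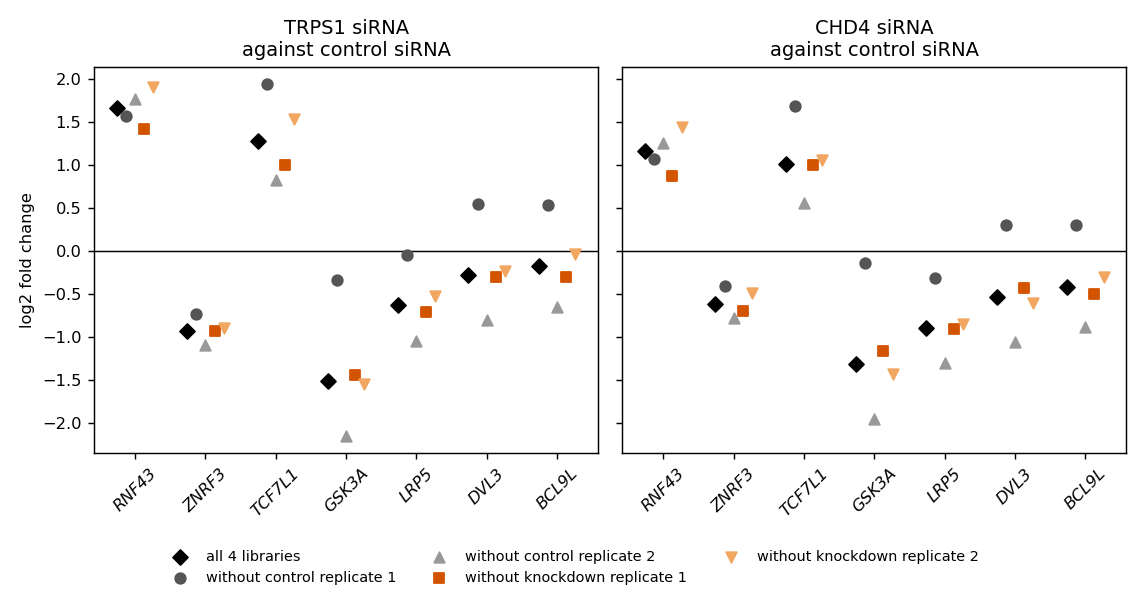
Log2 fold change (y axis) of 7 WNT pathway genes (x axis) with all 4 libraries (black diamonds) and with each library left out in turn, for *TRPS1* siRNA (left) and *CHD4* siRNA (right) against control siRNA. *RNF43* stays between 0.87 and 1.91 in both panels, whereas *GSK3A* moves to -0.34 and -0.13 without control replicate 1.

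The knockdowns were compared directly to ask where silencing *CHD4* differed from silencing *TRPS1*, a comparison that uses no control library. The WNT inhibitor genes *DKK1* and *NKD1* were higher after *CHD4* siRNA than after *TRPS1* siRNA, by 4.24 and 2.77 times, and were the members called. Called genes numbered 2 of 33 members, both higher, against 2.12% of all 13143 genes called higher and 1.56% called lower. Of these, *DKK1* passed the filter only through the *CHD4* siRNA libraries, so that its direction was set by the filter. Without a filter on low counts *DKK1* and *NKD1* were also called higher, whereas with over 2 CPM required in all 4 libraries neither was tested. With an unadjusted p under 0.05 alone, *FZD7* and *GSK3B* were also higher and *APC* was lower, so that 5 of 33 members passed, against 15.4% of all genes. The members' median log2 fold change was 0.06, against 0 for all genes, and their lowest adjusted p was 0.136 in edgeR. Across all genes 2023 had an unadjusted p under 0.05 and 0 an adjusted p under 0.05, against 570 with the likelihood ratio test and 456 with DESeq2.

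*DKK1*, a secreted protein that keeps LRP5 and LRP6 from the receptor complex, had 20 and 17 counts in control (1.44 and 1.31 CPM), 7 and 8 counts in *TRPS1* siRNA (0.662 and 0.529 CPM) and 30 and 28 counts in *CHD4* siRNA libraries (2.81 and 2.24 CPM). The 3 groups did not overlap, and the control level lay between those of the knockdowns. The log2 fold change of *CHD4* siRNA over *TRPS1* siRNA was 2.08 (standard error 0.44, adjusted p = 0.136 in edgeR). It stayed at 2.24 and 1.92 without *TRPS1* siRNA replicate 1 or 2, whereas without either *CHD4* siRNA library *DKK1* was under the filter and was not tested. *DKK1* passed the filter only through the *CHD4* siRNA libraries, where it therefore had to be higher. Counts this low place *DKK1* close to the limit of what the depth can resolve.

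*NKD1*, which binds Dishevelled and dampens the signal inside the cell, had 46 and 36 counts in control (3.31 and 2.78 CPM), 20 and 44 counts in *TRPS1* siRNA (1.89 and 2.91 CPM) and 66 and 91 counts in *CHD4* siRNA libraries (6.19 and 7.28 CPM). Both *CHD4* siRNA libraries lay above all other libraries, while control and *TRPS1* siRNA overlapped. The log2 fold change over *TRPS1* siRNA was 1.47 (standard error 0.34, adjusted p = 0.148 in edgeR). *NKD1* remained called when each of the 4 libraries was left out in turn, with values from 1.22 to 1.83.

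*FZD7*, a Frizzled receptor gene, was at 36.4 and 28.6 CPM in control, at 22.4 and 29.8 CPM in *TRPS1* siRNA and at 53.0 and 33.4 CPM in *CHD4* siRNA libraries. Its difference between the knockdowns was 0.73 (standard error 0.27, adjusted p = 0.292 in edgeR), and 0.35 without *CHD4* siRNA replicate 1. *GSK3B*, with the levels given above, differed by 0.35 (standard error 0.14, adjusted p = 0.318). *APC* was at 45.4 and 80.9 CPM in control, at 65.1 and 67.1 CPM in *TRPS1* siRNA and at 46.1 and 52.6 CPM in *CHD4* siRNA libraries, a difference of -0.42 (standard error 0.16, adjusted p = 0.286). The knockdown groups did not overlap for any of these 3 genes, and each lost its unadjusted p under 0.05 without at least 1 of the libraries. For *RNF43* the difference was -0.50 (standard error 0.27, adjusted p = 0.447), and the highest *CHD4* siRNA and lowest *TRPS1* siRNA libraries were both at 26.4 CPM. Over the list, both *CHD4* siRNA libraries lay above both *TRPS1* siRNA libraries for 9 of 33 members and below for 9, against 23.1% and 23.7% of all genes. The filter set the direction of *DKK1* (above) and *LEF1* (below) among them.

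**Figure D4:**
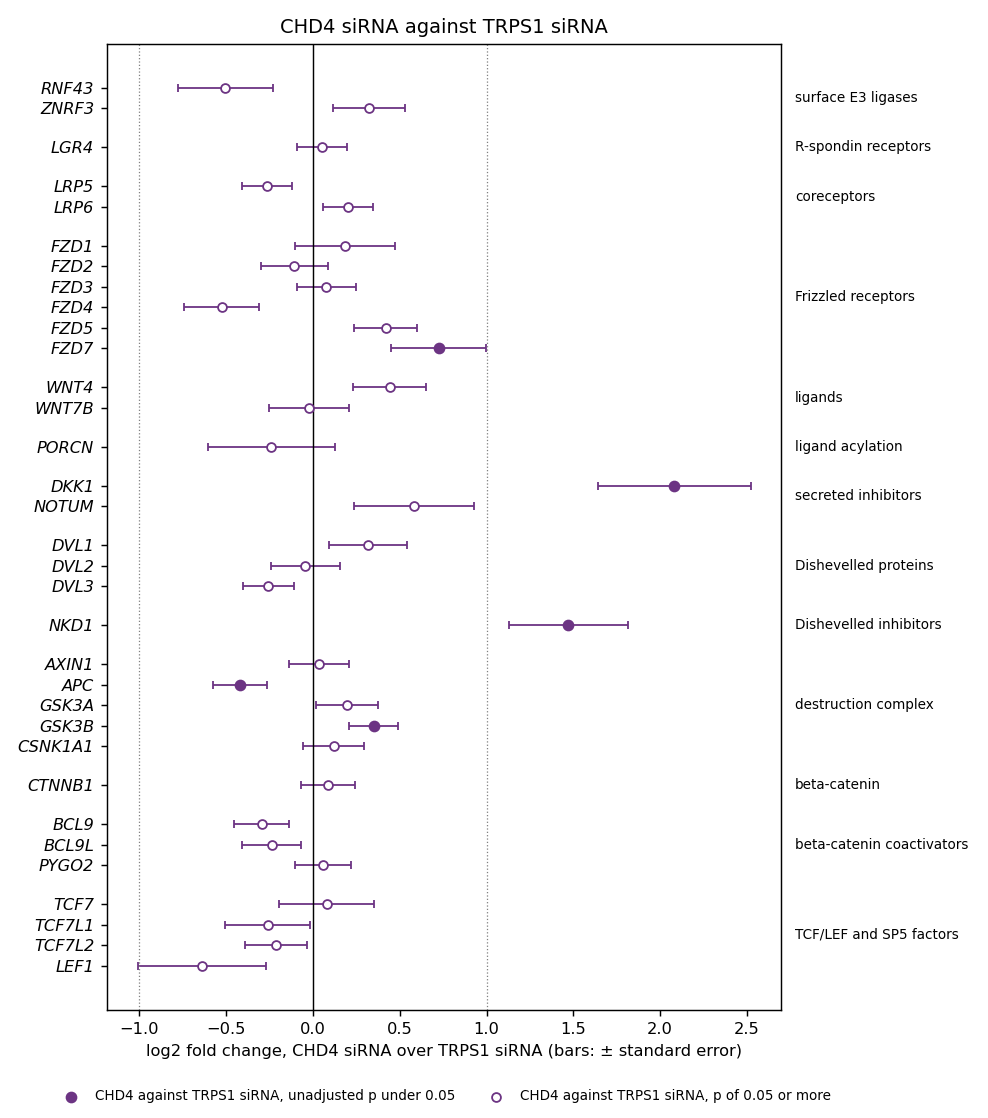
Log2 fold change of *CHD4* siRNA over *TRPS1* siRNA (x axis, bars ± standard error) for the 33 tested WNT pathway genes (y axis, grouped by role). Filled points have an unadjusted p under 0.05, dotted lines mark a fold change of 2, and *DKK1* (2.08) and *NKD1* (1.47) are the points beyond them.

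The rest of the pathway was read from a list of 101 other WNT genes, of which 94 were in the tables. For *TRPS1* siRNA against control, 57 were tested, 1 was called higher and 2 lower, beside 2.70% and 3.17% of all genes tested. For *CHD4* siRNA 57 were tested, with 3 called higher and 3 lower (2.60% and 2.85% of all genes). For *CHD4* siRNA against *TRPS1* siRNA 59 were tested, with 4 called higher and 0 lower (2.12% and 1.56%). The median log2 fold changes were -0.04, -0.01 and 0.16, beside -0.02, -0.02 and 0 for all genes. None of these genes had an adjusted p under 0.05 in edgeR.

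*CXXC4*, which encodes an inhibitor that binds Dishevelled, was at 2.73 and 5.95 CPM in control, at 13.5 and 15.7 CPM in *TRPS1* siRNA and at 35.3 and 29.997 CPM in *CHD4* siRNA libraries. The 3 groups did not overlap, and *CXXC4* was called higher in all 3 comparisons. The changes on the log2 scale were 1.78 (standard error 0.54, adjusted p = 0.659) for *TRPS1* siRNA, 2.93 (standard error 0.53, adjusted p = 0.749) for *CHD4* siRNA and 1.16 (standard error 0.20, adjusted p = 0.101) between them in edgeR. The first of these calls was lost without *TRPS1* siRNA replicate 1 (1.88) or 2 (1.69).

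*CCND1*, the cyclin gene often counted among β-catenin targets, was at 579 and 430.3 CPM in control, at 221 and 221 CPM in *TRPS1* siRNA and at 211 and 204 CPM in *CHD4* siRNA libraries. It was called lower in both knockdowns, at -1.18 (standard error 0.33, adjusted p = 0.659) and -1.28 (standard error 0.36, adjusted p = 0.792), and the first of these was -0.91, a fold change under 2, without control siRNA replicate 1. *MYC*, a growth regulator and another common β-catenin target, was at 135 and 51.2 CPM in control, at 42.7 and 38.2 CPM in *TRPS1* siRNA and at 31.8 and 28.5 CPM in *CHD4* siRNA libraries. It was called lower for *CHD4* siRNA (-1.63, standard error 0.53, adjusted p = 0.792), and the value was -0.71 without control siRNA replicate 1. *PPARD*, a nuclear receptor gene, was called lower for *CHD4* siRNA (-1.16, standard error 0.49, adjusted p = 0.792), and was at -0.47 without control replicate 1. Every call of *CCND1*, *MYC* and *PPARD* was lost when either knockdown replicate was left out.

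*CELSR2*, a cadherin of the planar polarity branch, was at 226 and 185 CPM in control, at 101 and 90.9 CPM in *TRPS1* siRNA and at 221 and 203 CPM in *CHD4* siRNA libraries. It was thus called lower for *TRPS1* siRNA (-1.09, standard error 0.33, adjusted p = 0.659) and higher for *CHD4* siRNA against *TRPS1* siRNA (1.15, standard error 0.15, adjusted p = 0.0903), whereas *CHD4* siRNA and control overlapped. *KREMEN2*, a receptor of DKK proteins, was at 70.2 and 31.4 CPM, 25.5 and 18.9 CPM, and 57.7 and 41.1 CPM in the same order, and was called higher for *CHD4* siRNA against *TRPS1* siRNA (1.16, standard error 0.25, adjusted p = 0.136). The *CELSR2* call for *TRPS1* siRNA was lost without *TRPS1* siRNA replicate 1 (-1.17) or 2 (-0.99) and without control replicate 1 (-0.90). The *KREMEN2* call was lost without *CHD4* siRNA replicate 1 (0.89) or *TRPS1* siRNA replicate 2 (0.96).

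*WNT3A*, a ligand of the canonical branch, was at 0.431 and 1.08 CPM in control, at 2.17 and 1.72 CPM in *TRPS1* siRNA and at 4.22 and 4.08 CPM in *CHD4* siRNA libraries. It was called higher for *CHD4* siRNA against control (2.46, standard error 0.79, adjusted p = 0.792) and against *TRPS1* siRNA (1.10, standard error 0.34, adjusted p = 0.223), the second of which was lost without *TRPS1* siRNA replicate 2 (0.93). Against control, *WNT3A* passed the filter only through the *CHD4* siRNA libraries, where it had to be higher, and it was not tested without either of them. *CSNK2A2*, a catalytic subunit of casein kinase 2, was at 27.6 and 35.99 CPM, 51.3 and 43.8 CPM, and 69.1 and 60.2 CPM in the same order. It was called higher for *CHD4* siRNA against control (1.04, standard error 0.39, adjusted p = 0.792). The *CSNK2A2* call was lost without *CHD4* siRNA replicate 1 (0.96) or 2 (1.15) and, with a fold change under 2, without control replicate 1 (0.89).

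TRPS1 binding near these genes was read from the deposited list of 1844 peaks, which were 207 to 1745 bp wide (median 288.0 bp). The list is on hg38 per the submitters' processing notes and holds positions without heights or scores. A peak lay inside the gene or within 50 kb of it for 8 of the 43 members (18.6%), or 8 of the 33 tested members (24.2%), against 17.0% of 12347 tested genes with a position. Those 8 genes were *RNF43*, *TCF7L1*, *BCL9L*, *LRP5*, *FZD4*, *PYGO2*, *DVL3* and *CSNK1A1*. Gene positions come from RefSeq on GRCh38.p14, and whether a peak is exonic or intronic was not analysed here. Since 1 list was deposited for all ChIP-seq libraries and pooling was not stated, peaks have no replicate error.

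In 3 members the peak lay inside the gene, namely *RNF43*, *TCF7L1* and *BCL9L*. The *RNF43* peak was on chromosome 17 from 58387888 to 58388097 (210 bp), 29.5 kb from the transcription start site. *TCF7L1* held a pair of peaks on chromosome 2, from 85259261 to 85259522 and from 85260021 to 85260276, 126.0 and 126.8 kb from its start. *BCL9L* held a pair on chromosome 11, from 118916923 to 118917212 and from 118918352 to 118918733, with another 3.5 kb outside the gene from 118929445 to 118929772. *BCL9L* was at 420.3 and 193 CPM in control, 294 and 249 CPM in *TRPS1* siRNA and 246 and 214 CPM in *CHD4* siRNA libraries, with groups that overlapped.

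The peaks near the other 5 members lay outside them. For *LRP5* the peak began 10.7 kb past the gene end and 0.5 kb from *PPP6R3*. The levels of *LRP5* were 280 and 147 CPM in control, 146 and 130 CPM in *TRPS1* siRNA and 117 and 112 CPM in *CHD4* siRNA libraries. The groups did not overlap, although the lower control and the higher *TRPS1* siRNA library nearly coincided. For *FZD4* there were peaks 45.1 and 50.1 kb upstream of the start, the second reaching to 49.9 kb from the gene. *FZD4* was at 102 and 174 CPM in control, 229.8 and 165 CPM in *TRPS1* siRNA and 152 and 123 CPM in *CHD4* siRNA libraries, and its groups overlapped.

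For *PYGO2* the peak lay upstream, 11.8 kb from the gene, inside *SHC1*. *PYGO2* ranged from 94.6 to 117 CPM over the 6 libraries (116 and 100.5 in control, 102 and 101 in *TRPS1* siRNA, 117 and 94.6 in *CHD4* siRNA). *DVL3* had peaks 20.7 kb upstream, next to *EIF2B5*, and 30.5 kb downstream of its start, next to *ABCF3*, and was at 443 and 182 CPM, 261 and 254 CPM, and 203 and 228 CPM in the same order. For *CSNK1A1* the peak lay 32.2 kb upstream, inside *ARHGEF37*, with levels of 319 and 348 CPM, 241 and 246 CPM, and 297 and 230.5 CPM. *CSNK1A1* was the gene of these 3 whose knockdown libraries lay below both controls, at -0.44 (adjusted p = 0.685) and -0.33 (adjusted p = 0.839) in edgeR.

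Members with an unadjusted p under 0.05 in a comparison but no peak within 50 kb were *ZNRF3*, *GSK3A*, *GSK3B*, *NKD1*, *DKK1*, *FZD7* and *APC*. *ZNRF3* had 5 peaks at 60.1 to 74.5 kb, all nearest to *XBP1*, a luminal transcription factor gene. The peak nearest to *NKD1* lay 57.1 kb away inside *NOD2*, and that of *APC* 77.2 kb away, next to *REEP5*. *DKK1*, *FZD7*, *GSK3A* and *GSK3B* had no peak within 100 kb.

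**Figure D5:**
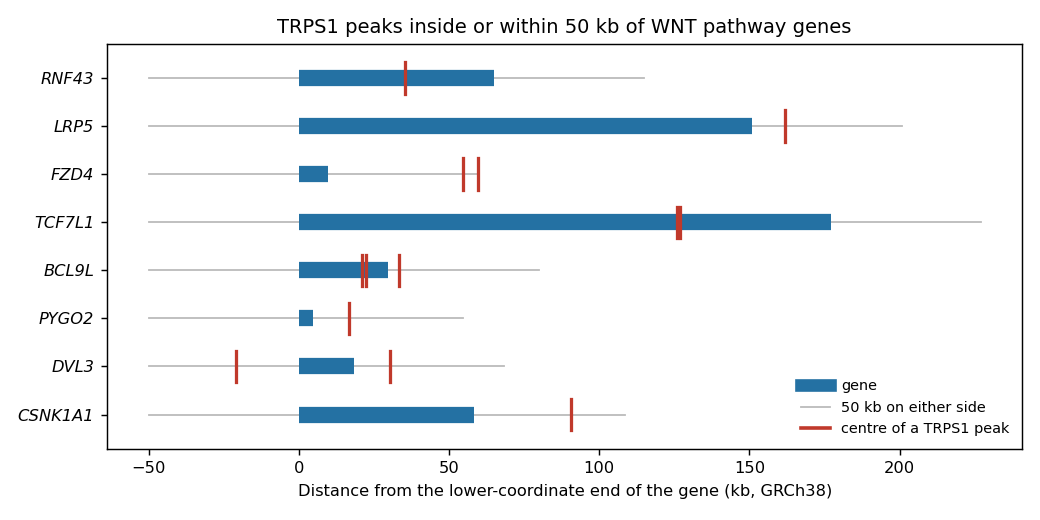
Position of TRPS1 peak centres (red) relative to the 8 WNT pathway genes (blue bars, y axis) that have a peak inside or within 50 kb (grey lines), in kb from the lower-coordinate end of each gene (x axis). Peaks lie inside *RNF43*, *TCF7L1* and *BCL9L* and outside the other 5 genes.

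The promoters of *RNF43* and *TCF7L1* are printed because both genes were called higher and held peaks far from these windows, and that of *DKK1* because it held the motif of the TCF/LEF factors. Each is 300 bases of RefSeq sequence on GRCh38.p14, 5′ to 3′ on the strand of the gene, from 250 bases before to 50 after the start. Entries were found for 29 of the 43 members. The letters GATA, the core that GATA factors recognise, were searched on both strands, as were the longer form AGATAAG, which is also counted under the short form, and CTTTGA, the core bound by TCF/LEF factors. Capitals mark CTTTGA or its reverse complement TCAAAG.
RNF43 promoter, chr17:58417485-58417784, minus strand: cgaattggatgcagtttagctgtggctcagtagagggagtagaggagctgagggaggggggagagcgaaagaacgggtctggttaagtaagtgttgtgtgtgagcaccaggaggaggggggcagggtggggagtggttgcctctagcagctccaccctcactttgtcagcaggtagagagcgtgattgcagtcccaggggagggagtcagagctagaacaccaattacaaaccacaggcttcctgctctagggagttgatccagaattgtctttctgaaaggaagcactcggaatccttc
TCF7L1 promoter, chr2:85133142-85133441, plus strand: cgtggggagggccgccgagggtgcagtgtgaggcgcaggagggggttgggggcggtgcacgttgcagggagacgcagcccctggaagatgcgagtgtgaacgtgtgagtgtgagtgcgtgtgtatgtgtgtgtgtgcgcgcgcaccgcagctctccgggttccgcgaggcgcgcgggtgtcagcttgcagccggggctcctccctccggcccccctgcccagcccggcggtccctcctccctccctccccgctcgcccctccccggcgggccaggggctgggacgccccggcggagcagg
DKK1 promoter, chr10:52314031-52314330, plus strand: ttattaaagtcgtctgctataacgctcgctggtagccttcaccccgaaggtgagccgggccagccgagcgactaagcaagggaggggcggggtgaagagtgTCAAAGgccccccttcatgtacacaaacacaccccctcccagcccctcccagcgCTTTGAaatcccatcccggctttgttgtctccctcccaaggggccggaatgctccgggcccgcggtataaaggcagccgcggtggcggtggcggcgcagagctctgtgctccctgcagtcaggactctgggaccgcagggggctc

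The *RNF43* and *TCF7L1* windows held none of the 3 motifs. The *DKK1* window held TCAAAG with its first base at -149 and CTTTGA at -95 relative to the start. CTTTGA was present in 2 of 29 member promoters (6.9%, *DKK1* and *SP5*), against 8.6% of the promoters of tested genes and 13.1% of all promoters. GATA was present in 7 of 29 (24.1%), against 37.3% and 50.5%, and AGATAAG in 0 of 29, against 1.3% and 2.6%. The GC content of the member promoters was high, with a median of 69.3% against 65.3% for tested genes. A match is a description of letters in these windows and not of binding.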

How the data were processed

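T47D RNA-seq (6 libraries) and TRPS1 ChIP-seq (2 ChIP and 2 input libraries) were examined. Per the methods of the study, reads were trimmed by the authors, RNA-seq reads were mapped with STAR, and HTSeq (0.9.0 per the submitters' processing notes) gave the number of reads per gene. The deposited values are these raw counts, without normalization. The ChIP-seq reads were aligned with BWA (0.7.12-r1039), and the authors called peaks with MACS2 (2.1.1). The deposited list holds peak positions on hg38 in bp, with no other measurement. Strand use in counting was not given in the sources used here, so reads of overlapping antisense genes cannot be told apart.

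The 43 members and the list of 101 other pathway genes were chosen with earlier results of these data known. Genes above 2 CPM in no fewer than 2 of the 4 compared libraries were fitted together with edgeR (version 4.0.16, R 4.3.3), with TMM factors, no covariates, a prior count of 0.125 and the quasi-likelihood F-test, and p-values were adjusted over all genes tested by the Benjamini-Hochberg method. The cutoff of over 2 CPM and the thresholds for calls (fold change over 2, unadjusted p under 0.05) follow the study. The number of libraries required was set here, as the study named none. The study equated its cutoff with fewer reads than 2 CPM stands for at the library totals here. The standard error of a log2 fold change was its size over the root of its F statistic. Replicates of a group differed by more than sampling noise and were counted separately. Totals ranged from 10333138 to 14668358 counts. The fit was tested on simulated data.

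Values are given per library for *RNF43*, for members with an unadjusted p under 0.05 in any comparison and for members with a peak within 50 kb, and of the other pathway genes for those called in any comparison. *WNT4*, *CTNNB1* and *NOTUM* were given per library outside this rule, after their values were seen. Peaks were matched to RefSeq gene positions (GRCh38.p14) by symbol, and positions were found for 43 members. Alternatives changed the test (edgeR's likelihood ratio test or DESeq2 1.42.0), the scaling (RLE factors or unscaled library sizes), the filter, the prior count (2), the libraries (all 6 in a joint fit, or each left out in turn) and the distance to peaks, or added a replicate block. Figures were drawn with matplotlib 3.10.9.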

Additional observations from a re-analysis of the deposited data

How the results depend on the processing

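Members called for *TRPS1* siRNA against control numbered 3 with all libraries and 0 to 8 with each library left out in turn. For *CHD4* siRNA against control they numbered 1, against 2 with DESeq2, the likelihood ratio test, no low-count filter or over 2 CPM required in all 4 libraries, 3 with all 6 libraries in one fit and 0 to 8 with each library left out. For *CHD4* siRNA against *TRPS1* siRNA they numbered 2, against 0 with over 2 CPM required in all 4 libraries, where *DKK1* and *NKD1* were not tested, and 1 to 2 with each library left out. Members with an adjusted p under 0.05 in edgeR numbered 0 in each comparison, against 0 to 18 (*TRPS1* siRNA) and 0 to 8 (*CHD4* siRNA) with each library left out, and, between the knockdowns, 2 with the likelihood ratio test and 1 without a filter. Only the upper ends of these ranges, for *TRPS1* siRNA and for *CHD4* siRNA, are tied to leaving out control siRNA replicate 2. Without control siRNA replicate 1, the library that stood apart, *RNF43* and *TCF7L1* had log2 fold changes of 1.58 and 1.94 for *TRPS1* siRNA. Each of these settings leaves 1 control library, so that the spread of the control group was not measured in it.

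Other WNT pathway genes called for *TRPS1* siRNA numbered 3, against 5 with the likelihood ratio test, DESeq2 or all 6 libraries, 6 without a filter and 0 to 15 with each library left out. For *CHD4* siRNA they numbered 6, against 10 without a filter and 1 to 11, and between the knockdowns 4, against 2 to 5. Over all genes, calls numbered 759 (*TRPS1* siRNA), against 1359 without a filter and 74 to 4304 with each library left out. They numbered 704 (*CHD4* siRNA), against 1403 and 91 to 3969. Between the knockdowns they numbered 483, against 751 without a filter, 313 with over 2 CPM in all 4 libraries, 320 with all 6 libraries and 482 to 724 with each library left out.

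Replicate numbers are shared by the groups, but the labels do not say that a number marks a shared culture or day. Same-numbered libraries deviated from their group means with r = 0.09 (*TRPS1* siRNA and control), 0.019 (*CHD4* siRNA and control) and 0.645 (both knockdowns), from 2 pairs each. With a replicate block the member calls stayed at 3, 1 and 2, the other pathway genes called for *TRPS1* siRNA went to 5 and all genes called to 1221, while *ZNRF3* no longer had an unadjusted p under 0.05 for *TRPS1* siRNA. Members with an adjusted p under 0.05 between the knockdowns went from 0 to 9 with the block (*APC*, *DKK1*, *DVL1*, *FZD4*, *FZD5*, *FZD7*, *GSK3B*, *NKD1* and *RNF43*). *KREMEN2* turned to 0.06 for *CHD4* siRNA against control with the block.

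Of 859 values of log2 fold changes under alternatives (67 values of named genes), 709 kept direction and side of the threshold, 74 became weaker, 51 passed the threshold newly and 25 changed sign. Values that changed sign when a library was left out are given as their range over the libraries. For *TRPS1* siRNA against control these were *APC* (-0.25 to 0.52), *BCL9L* (-0.65 to 0.54), *DVL3* (-0.80 to 0.55), *PPARD* (-1.0 to 0.13) and *PYGO2* (-0.22 to 0.06), each positive or, for *APC*, negative without control replicate 1. For *CHD4* siRNA against control they were *FZD4* (-0.29 to 0.41), *APC* (-0.66 to 0.10), *BCL9L* (-0.89 to 0.30), *PYGO2* (-0.16 to 0.13), *DVL3* (-1.06 to 0.30), *CELSR2* (-0.11 to 0.25) and *KREMEN2* (-0.53 to 0.70). Between the knockdowns they were *TCF7L1* (-0.49 to 0.02), *PYGO2* (-0.10 to 0.21) and *CSNK1A1* (-0.08 to 0.30). Under other settings, *PYGO2* changed sign with unscaled library sizes (0.04 for *TRPS1* and 0.09 for *CHD4* siRNA) and with over 2 CPM in all 4 libraries (0.02, *CHD4* siRNA), *KREMEN2* under the same settings for *CHD4* siRNA (0.08 and 0.01), and *FZD4* without a filter (-0.01, *CHD4* siRNA). The cause of these changes was not tested.

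Members with a nearby TRPS1 peak numbered 8 within 50 kb of the gene, against 3 within 10 kb, 16 within 100 kb and 5 within 50 kb of the transcription start site. Among tested members the numbers were 8 of 33 (24.2%), 3 of 33 (9.1%), 15 of 33 (45.5%) and 5 of 24 (20.8%). Of all tested genes with a position or start site, 17.0%, 9.1%, 25.2% and 13.3% had such a peak, and these differences were not tested. With 2 libraries per group and 1 control library apart from the rest, moderate changes of most members could not be told from the spread between libraries, and members under about 20 counts are near the limit of the depth. Where an arm kept 1 library, it was assumed to vary like the other group.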
